A study of Mus musculus with 2 samples.

Results

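Noncycling CIC::DUX4 tumor nuclei were nuclei that carried high levels of the target genes of the fusion transcription factor CIC::DUX4 and few or no transcripts of cell cycle genes. They were picked from the single-nucleus RNA counts of 8 mouse tumors by 3 sums, each taken per 10000 unique molecular identifiers (UMIs) of a nucleus. The tumor score T, the sum of Etv1, Etv4, Etv5, Shc3 and Shc4, had to reach 80. The cycle score C, the sum of 20 replication and mitosis genes such as Mcm3, Top2a and Mki67, could not pass 5, and the endothelial score E, the sum of 10 genes such as Pecam1 and Kdr, had to stay under 20. Of 72338 deposited nuclei, 60121 had at least 1000 UMIs and under 5% mitochondrial counts, and 3480 of these (5.79%) were noncycling tumor nuclei. A further 29730 nuclei reached the same T and E limits with a C above 5 and are called cycling tumor nuclei here, so the noncycling nuclei made up 10.5% of the tumor nuclei.

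The tumors came from dFLEx CDS mice, which hold a CIC::DUX4 transgene at the Rosa26 locus under the ubiquitous CAG promoter that is expressed only after both Cre and FLPE have acted. Tumors were started by electroporating plasmids for both recombinases into hind limb muscle, so fusion expression was confined to the cells that took up both, and the host kept its immune system. Of the 2 groups, 4 tumors were untreated, with the genotype given as dFLEx CDS +/-. The other 4 were from dFLEx CDS mice that received 0.42 mg/kg of Minnelide daily for 21 days. Minnelide releases triptolide in the body, a compound that binds the XPB subunit of the general transcription factor TFIIH. The study chose Minnelide tumors with a favorable and with a poor response, which the labels do not tell apart, so the Minnelide group here mixes both. The age of these mice was not used here, each count matrix was taken as 1 tumor, and the tumors are numbered by the order of their files within each group.

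CIC is a DNA-binding repressor of the feedback genes of receptor tyrosine kinase and RAS-MAPK signaling, and it is released from its targets when that signaling is active. In CIC::DUX4 sarcoma the C-terminal part of DUX4 turns CIC into a transcriptional activator, so the same genes are switched on. Sarcoma cells that are out of the cell cycle are of interest because many cytotoxic drugs act mainly on dividing cells.

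All values below were UMI counts summed over the noncycling nuclei of a tumor and scaled to CPM, counts per 1000000 of that sum, and values for the 4 tumors of a group are given in the order of their numbers. The untreated tumors held 170, 532, 435 and 350 noncycling nuclei, 1487 in all, and the Minnelide tumors 517, 521, 643 and 312, 1993 in all. Their median depth was 1520 to 3509 UMIs and was below that of the cycling nuclei of the same tumor in 8 of 8 tumors. No C transcript at all was found in 1379 of the noncycling nuclei, and 2101 had a C above 0 and up to 5, while 5369 tumor nuclei lay just outside, with a C between 5 and 10. At the T limit, 277 noncycling nuclei had a T from 80 to 90, and 285 nuclei with a low C had a T from 70 to 80. At the E limit, 669 noncycling nuclei had an E from 10 to 20, and 515 nuclei that otherwise qualified had an E from 20 to 30.

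Untreated tumor 1 stood apart before any comparison. It had 127 cycling tumor nuclei and 3125 nuclei with a high T that failed the endothelial limit, and the median E of its noncycling nuclei was 14.4, against 3.57 to 6.49 in the other 7 tumors. The shares, the genes called by DESeq2 and the list medians that it turned are given with and without it. Of 28 pairs of tumors, 4 pairs, each of an untreated and a Minnelide tumor, shared 49 to 132 nucleus barcodes, of which 34 marked a noncycling nucleus in either tumor and 1 in both. No shared barcodes were found within a group. The labels give no sequencing run for each tumor, and treatment and library run cannot be told apart. In a comparison of levels, fewer transcripts per nucleus and a different mix of nuclei within the sum cannot be told apart.

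The genes of the tumor score were high by the way the nuclei were chosen, and their levels are a description. Etv1, Etv4 and Etv5 encode the PEA3 family of ETS transcription factors. Etv1 (chr12:38828851-38920483, GRCm39) was at 6249, 5334, 4552 and 4505 CPM in untreated tumors and 6695, 3982, 6016 and 5435 CPM in Minnelide tumors. Etv4 (chr11:101660568-101676197) was at 3489.5, 3299, 2709 and 3923 CPM and then 3064, 1836, 2494 and 2157 CPM. Etv5 (chr16:22200052-22259662) was at 1352, 1615, 1976 and 1951 CPM and then 1552, 1402, 1675 and 1474 CPM. The untreated and Minnelide tumors overlapped for each of these 3 genes. Shc3 and Shc4 encode adaptor proteins that bind activated receptor tyrosine kinases. Shc3 (chr13:51577429-51723523) was at 1371, 2223, 2464 and 2144 CPM in untreated and 2392, 2205, 2444 and 2185 CPM in Minnelide tumors. Shc4 (chr2:125469363-125566129) was at 1361, 2078, 2253 and 1974 CPM and then 1973, 1594, 2173 and 1968 CPM. For both adaptors the lowest value was that of untreated tumor 1, and the groups overlapped.

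**Figure D1:**
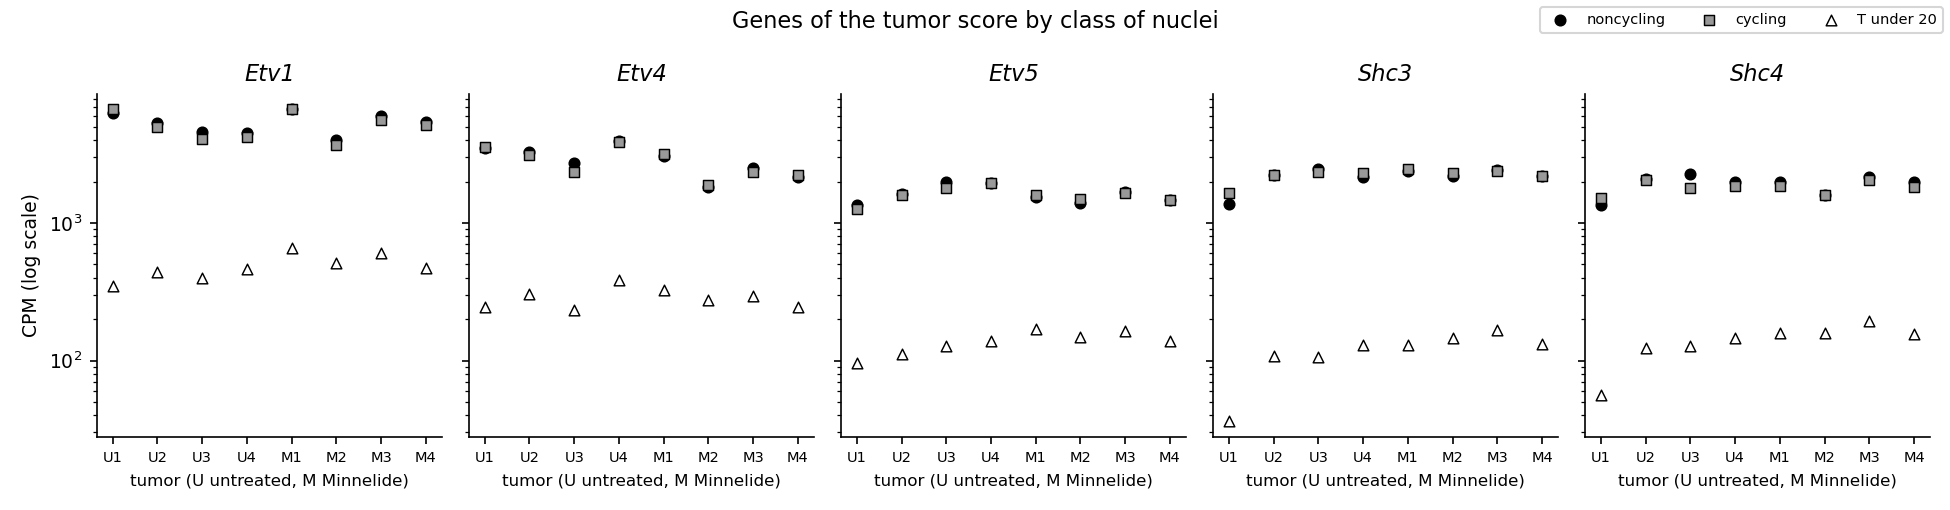
CPM (log axis) of the 5 genes of the tumor score in each tumor, in noncycling tumor nuclei (filled circles), cycling tumor nuclei (grey squares) and nuclei with a T under 20 (open triangles). Noncycling and cycling nuclei of a tumor lie almost on top of each other, with Etv1 between 3982 and 6695 CPM in noncycling nuclei. Nuclei with a low T lie far below. The classes were set by the sum of these genes, with the same T limit for noncycling and cycling nuclei.

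Fusion target levels lay close together in noncycling and cycling nuclei of the same tumor. The median difference over the 8 tumors, as noncycling minus cycling on the log2(CPM + 5) scale used for all such differences, was 0.10 for Etv1, 0.00 for Etv4, 0.01 for Etv5, -0.03 for Shc3 and 0.09 for Shc4. The same 5 genes were lower, by the choice of the nuclei, where the T was under 20. The median fold over those nuclei ran from 9.73 for Etv4 to 16.9 for Shc3. Of 16 CIC::DUX4 targets outside the score, 12 were abundant enough to compare. Their median difference between noncycling and cycling nuclei was 0.01.

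The promoters of the target genes are where CIC and the fusion are known to bind, through octamers of the form TGAATGAA, TGAATGGA, TCAATGAA or TCAATGGA on either strand (read as TTCATTCA, TCCATTCA, TTCATTGA or TCCATTGA on the other). Windows from 250 bases before to 50 bases after the start were taken from RefSeq on GRCm38.p6 for the 5 score genes and 16 further targets. Of these 21 genes, 10 had a window, in 12 windows, and 4 of those windows held an octamer, against 1260 of 32851 windows of all genes (3.84%). Among the score genes only Shc4 had a match. The windows of Etv1 and Etv5 held no octamer, and Etv4 and Shc3 had no window. The 3 windows shown are those of a score gene and of a phosphatase and a feedback inhibitor whose levels follow, with the octamers in capitals. They are for Shc4 (chr2:125724099-125724398, minus strand), Dusp6 (chr10:99262981-99263280, plus strand) and Spred3 (chr7:29168598-29168897, minus strand).
Shc4: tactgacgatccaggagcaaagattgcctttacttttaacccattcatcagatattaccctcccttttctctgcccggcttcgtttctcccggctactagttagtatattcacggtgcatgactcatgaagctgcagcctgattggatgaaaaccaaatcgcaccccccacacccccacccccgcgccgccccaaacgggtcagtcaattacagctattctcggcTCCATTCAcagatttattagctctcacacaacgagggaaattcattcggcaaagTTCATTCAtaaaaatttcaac
Dusp6: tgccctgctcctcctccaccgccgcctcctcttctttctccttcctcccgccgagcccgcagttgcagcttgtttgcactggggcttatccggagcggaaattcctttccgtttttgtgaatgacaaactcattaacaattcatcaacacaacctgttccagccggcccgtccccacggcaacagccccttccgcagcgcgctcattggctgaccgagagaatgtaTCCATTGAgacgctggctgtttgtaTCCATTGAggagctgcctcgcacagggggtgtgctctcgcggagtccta
Spred3: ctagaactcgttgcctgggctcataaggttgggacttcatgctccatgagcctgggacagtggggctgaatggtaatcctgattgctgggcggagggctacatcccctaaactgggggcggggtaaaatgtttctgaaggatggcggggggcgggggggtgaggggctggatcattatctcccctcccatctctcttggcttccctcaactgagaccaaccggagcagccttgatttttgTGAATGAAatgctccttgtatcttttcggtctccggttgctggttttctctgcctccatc
The fourth was Spry2 (chr14:105896770-105897069, minus strand), with 1 octamer. A match to these letters is a description of the window, and binding was not measured.

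Of the 16 further CIC::DUX4 targets, 12 were at 20 CPM or more in the mean of noncycling or cycling nuclei. These 12 had a median fold of 3.73 over nuclei with a low T. Dusp5 alone among the 16 had a median fold under 1, of 0.48. Spred2 and Spred3, which encode membrane inhibitors of RAS-MAPK signaling, had median folds of 6.01 and 4.32. Spred3, with its octamer above, was at 281, 278, 309 and 280.1 CPM in untreated and 268, 203, 281 and 292 CPM in Minnelide tumors. Dusp6, the phosphatase of ERK, was at 103, 125, 102 and 117 CPM and then 133, 64.5, 129 and 158 CPM, with a median fold of 2.34. Ccnd2, which encodes the G1 cyclin D2, was at 1423, 1746, 2063 and 1922 CPM and then 2171, 1709.5, 2148 and 2183 CPM in nuclei chosen for a low C. Its difference from cycling nuclei had a median of 0.02. The mucin gene Muc5ac varied more, at 658, 3493, 1397 and 3197 CPM in untreated and 2660.3, 2499.5, 4349.6 and 3483 CPM in Minnelide tumors, and the neurosecretory gene Vgf was at 2146, 1905, 1035 and 946 CPM and then 3939.7, 1069, 3847 and 1732 CPM. Crh, the gene of corticotropin-releasing hormone, was at 23.4, 31.3, 2.44 and 0 CPM in untreated and 0, 0, 2.00 and 0 CPM in Minnelide tumors, too low to be tested. The groups overlapped for each of these genes.

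The 20 genes outside the score that set noncycling tumor nuclei most apart from nuclei with a low T were ranked by their smallest fold over the 8 tumors, and since the classes were drawn from the same counts no test applies. Their median differences from cycling nuclei of the same tumors ran from -0.16 for Col26a1 to 0.11 for Grip1. Asic2, which encodes a neuronal proton-gated sodium channel, was at 1077, 2153, 2266 and 2318 CPM in untreated and 2122, 1972, 1912 and 2321 CPM in Minnelide tumors, a median fold of 15.8. Pde10a, the gene of a striatal phosphodiesterase, had a median fold of 16.8, and Alk, a receptor tyrosine kinase gene of the developing nervous system, 13.9. Alk was steady in untreated tumors, at 1667, 1615, 1658 and 1627 CPM, and spread more widely in Minnelide tumors, at 1893, 1442, 2543 and 1187 CPM. Hmga2 and Igf2bp3 encode oncofetal chromatin and RNA-binding proteins. Hmga2 was at 2794, 3703, 4595 and 3033 CPM in untreated and 3678, 3239.8, 3633 and 3537 CPM in Minnelide tumors, a median fold of 13.8. Igf2bp3 was at 519, 2094, 2117 and 2148 CPM and then 2088, 1785, 2378 and 2439 CPM, with untreated tumor 1 far below the other 7. The remaining leading genes were Rgs20, Grip1, Col26a1, Mdga2, Tenm2, Rgs7, Dcc, Unc79, Gabrb1, Amph, Sdk1, Trim9, Ctnnd2, Ptpn5 and Frmpd3. In the means over the 8 tumors, Asic2 was at 2018 CPM in noncycling and 2032 CPM in cycling nuclei, and Alk at 1704 and 1863 CPM.

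Cell cycle genes that the score did not use were also low in noncycling tumor nuclei. Of 30 such genes fixed as a list, 22 were abundant enough to compare, and 19 of them were lower in noncycling than in cycling nuclei in 8 of 8 tumors, with a median difference of -0.92. Over all 7231 genes compared, 6.61% were lower and 3.32% higher in 8 of 8 tumors, and the median gene differed by 0.015. Both classes come from the same nuclei sorted by a related score, so these are descriptions. The summed list was at 459, 900, 922 and 1238 CPM in the noncycling nuclei of untreated tumors and 1079, 839, 949 and 966 CPM in those of Minnelide tumors. In cycling nuclei the sums were 2079, 1847, 1736 and 1873 CPM and then 2212, 1504, 2023 and 2055 CPM. The sums did not overlap between the classes, but they were not near 0 in noncycling nuclei.

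Single genes showed the gap in each tumor. Knl1, which encodes a kinetochore scaffold, was at 3.7, 35.3, 33.3 and 67.2 CPM in the noncycling nuclei of untreated tumors and 49.7, 36.8, 45.9 and 51.6 CPM in those of Minnelide tumors. In cycling nuclei it was at 106 to 182 CPM in the 8 tumors. Outside both cycle lists, the genes lower in 8 of 8 tumors with the largest gaps ran from the spindle motor gene Kif4, with a median difference of -1.73, through Depdc1b, Cdca2, Neil3, a DNA glycosylase gene, Efcab11, Kif15, with -1.55, and Cenpp to Cdca8. Pcna, the replication clamp gene, and Mcm7, a replicative helicase gene, were among the listed genes that were not lower in all 8 tumors, with median differences of -0.15 and -0.11. Of 16 CDK inhibitor, pocket protein and DREAM complex genes compared, 7 had a median difference above 0, with a list median of -0.05. Of these 16, the complex members Lin54 (-0.85) and Lin9 (-0.55) and the pocket protein gene Rbl1 (-0.65) were lower in 8 of 8 tumors, and the antiproliferative gene Btg2 (0.21) was higher in 8 of 8. Cdkn1a, the gene of the CDK inhibitor p21, was at 80.1, 42.1, 28.4 and 44.3 CPM in the noncycling nuclei of untreated and 26.4, 33.1, 42.4 and 20.01 CPM in those of Minnelide tumors, higher than in cycling nuclei in 7 of 8 tumors. Cdkn1b, the gene of p27, differed by a median of 0.01.

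Genes of hypoxia and glycolysis were somewhat higher in noncycling nuclei. This list of 40 genes was added after the classes had been compared, because several such genes were among those that were higher. Its direction was thus known when it was chosen, and its values are a description. All 36 genes compared had a median difference above 0, with a median over the list of 0.27, and 11 were higher in 8 of 8 tumors. Over all 7231 genes compared, 3935 had a median difference above 0 and 3.32% were higher in 8 of 8 tumors. The summed list was at 3853, 5035, 4393 and 4698 CPM in the noncycling nuclei of untreated tumors and 4096, 3565, 4807 and 4762 CPM in those of Minnelide tumors. In cycling nuclei it was at 3477, 4052, 2955 and 4193 CPM and then 3270, 2931, 4137 and 4098 CPM. The sum was thus higher in noncycling nuclei within each of the 8 tumors, while the classes overlapped across tumors. The 11 genes were Slc2a1, the glucose transporter GLUT1, and Hk2, Gbe1, Bnip3, Bnip3l, Higd1a, Ero1l, Fam162a, P4ha2, Kdm3a and Mxi1. Slc2a1 was at 19.7, 41.5, 18.7 and 27.2 CPM in noncycling against 15.4, 25.6, 15.7 and 23.0 CPM in cycling nuclei of untreated tumors. In Minnelide tumors it was at 32.1, 31.9, 34.0 and 52.6 CPM against 19.9, 21.3, 25.8 and 34.3 CPM.

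**Figure D2:**
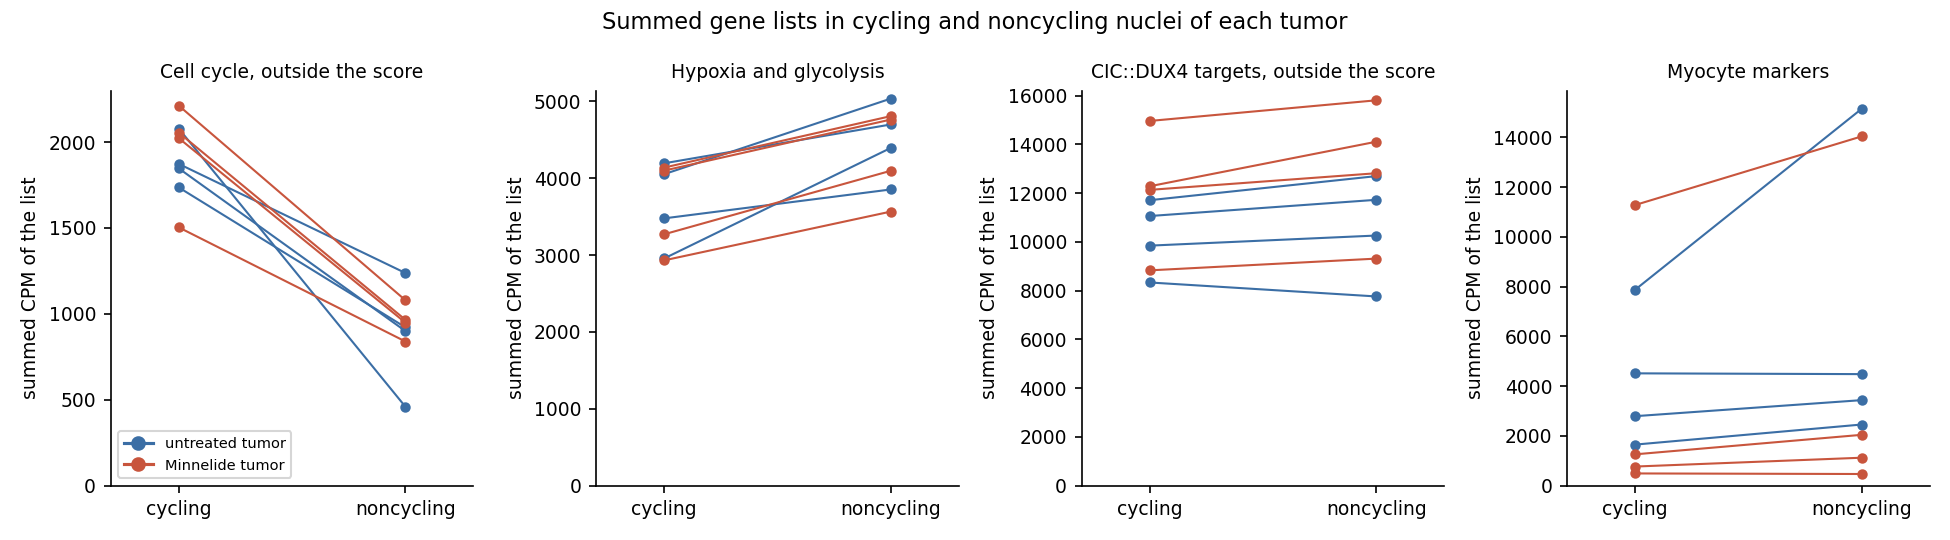
Summed CPM of 4 gene lists in the cycling and the noncycling tumor nuclei of each tumor, joined by a line for each tumor (blue untreated, red Minnelide). The cell cycle list is lower and the hypoxia and glycolysis list higher in noncycling nuclei of all 8 tumors. The hypoxia and glycolysis list was chosen after the classes had been compared. The CIC::DUX4 targets differ little, and the myocyte markers vary mainly between tumors.

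Outside the lists of the score and the cell cycle, the genes higher in noncycling nuclei of 8 of 8 tumors with the largest median differences were Kbtbd12 (0.60), Ly6a (0.58), a surface antigen gene of progenitors and stroma, Tcp11l2 (0.53), Emp3 (0.50), Tgfa (0.49), a ligand of the EGF receptor, Me1 (0.48), Ero1l (0.48), an oxidase gene of the endoplasmic reticulum, and Lmod2 (0.47), which encodes a sarcomeric actin nucleator. With at least 2000 UMIs a nucleus, Emp3, Me1 and Lmod2 were higher in 7 of 8 tumors, as was Me1 without Scrublet doublets. With a C of 0 required, Tgfa (0.29) and Me1 (0.27) were higher in 5 of 8 tumors, Ero1l (0.34) and Lmod2 (0.24) in 6 and Kbtbd12 (0.63) in 7, while Ly6a, Tcp11l2 and Emp3 stayed higher in 8. Kbtbd12 and Lmod2 are expressed in muscle fibers, and 9 of 10 myocyte markers also had a median difference above 0, with a median of 0.35 over the list. The summed myocyte markers ranged from 469 to 15146 CPM in noncycling and from 491 to 11276 CPM in cycling nuclei. The collagen and matrix genes Col1a1 (0.36), Col3a1 and Dcn, all fibroblast markers, were higher in 8 of 8 tumors. The part of these transcripts from other cells in the differences was not tested. In the opposite direction, Polr2a, the largest subunit of RNA polymerase II, was lower in 8 of 8 tumors, with a median difference of -0.19. It was 1 of 10 genes compared in its list, whose median was 0.00, and the receptor tyrosine kinase gene Ephb2 (-0.22) was 1 of 18, with a list median of 0.05, against 6.61% of all genes lower in 8 of 8 tumors.

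Whether treatment went with fewer or more noncycling nuclei was asked first. They were 1.80%, 10.1%, 6.66% and 6.75% of the nuclei that passed the filters in untreated tumors and 4.52%, 6.91%, 6.54% and 6.44% in Minnelide tumors. The groups overlapped, with means of 6.32% ± 3.41 and 6.10% ± 1.08 (SD, n = 4 each), and the difference of -0.224 percentage points had p = 0.829 in a two-sided exact permutation test, whose smallest possible p with these groups is 0.0286. Without untreated tumor 1 the difference was -1.73 points, with an exact permutation p of 0.143. As a share of tumor nuclei they were 57.2% (95% Clopper-Pearson interval 51.4 to 62.9, counting error only), 15.8%, 13.03% and 10.98% in untreated and 5.75%, 19.8%, 8.04% and 9.17% in Minnelide tumors. The means were 24.3% ± 22.1 and 10.7% ± 6.23 (SD, n = 4 each), and the difference of -13.6 points had p = 0.286 in the two-sided exact permutation test. Without untreated tumor 1 the difference was -2.58 points, with an exact permutation p of 0.571.

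**Figure D3:**
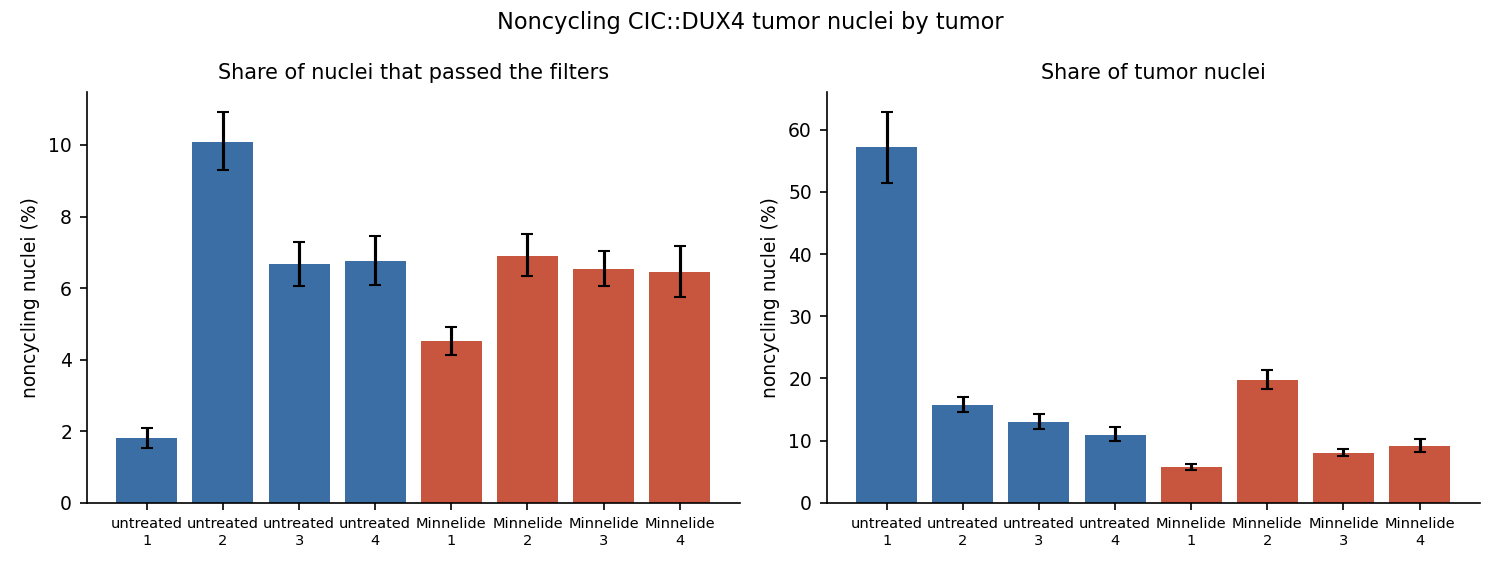
Noncycling tumor nuclei as a percentage of all nuclei that passed the filters (left) and of tumor nuclei (right), 1 bar for each tumor (blue untreated, red Minnelide) with 95% Clopper-Pearson intervals. Untreated tumor 1 is lowest on the left, at 1.80%, and highest on the right, at 57.2%, and the groups overlap in both panels.

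Shares of this kind move with depth, since a nucleus with more UMIs has more chances to show a C transcript. With each nucleus thinned to 1000 UMIs, the noncycling share of passed nuclei was 3.202%, 15.9%, 10.8% and 10.8% in untreated and 11.6%, 11.5%, 15.0% and 11.04% in Minnelide tumors. The difference then had the other sign, 2.11 points, with an exact permutation p of 0.514. Of tumor nuclei, the thinned share averaged 33.9% and 23.0%, a difference of -10.9 points with an exact permutation p of 0.457.

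No gene of noncycling nuclei passed the test of Minnelide against untreated tumors. Of 9797 genes tested with edgeR's quasi-likelihood test on the summed counts, 0 (0%) were called at a Benjamini-Hochberg adjusted p under 0.05, and 563 had an unadjusted p under 0.05. The smallest adjusted p was 0.847, with a common biological coefficient of variation of 0.35. Limma with voom called 0 genes, with 533 at an unadjusted p under 0.05. DESeq2 called 10 of 15355 genes (0.0651%), all lower in Minnelide tumors, with 671 at an unadjusted p under 0.05. The tumors of the groups did not overlap for 114 genes (1.16%) that were higher and 271 (2.77%) that were lower in Minnelide tumors. The genes described next had the smallest p in edgeR or were called by DESeq2, and edgeR called none of them.

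The genes called lower by DESeq2 were Gabrg3, Hoxb6, Cpe, Ntn1, Smpd3, Lbp, Irf4, Ldb2, Cadps and Hoxb3. Gabrg3 encodes a GABA-A receptor subunit. It was at 93.6, 17.6, 45.5 and 14.3 CPM in untreated and 3.11, 0.614, 0.40 and 0 CPM in Minnelide tumors, a log2 fold change of -5.05 ± 0.84 (SE) by edgeR, and its adjusted p was 7.88e-05 by DESeq2. Ntn1, which encodes the guidance cue netrin-1, was at 78.8, 41.5, 29.2 and 22.9 CPM and then 9.33, 11.7, 10.8 and 7.37 CPM, with a log2 fold change of -2.02 ± 0.37 (SE). Cpe, a processing enzyme of neuropeptides, was at 216, 79.1, 106 and 21.4 CPM and then 16.6, 17.8, 9.19 and 8.42 CPM, with a log2 fold change of -2.91 ± 0.58 (SE). None of the 3 genes overlapped between the groups, and the highest value of each was in untreated tumor 1. Without that tumor their log2 fold changes by edgeR were -4.43 for Gabrg3, -1.64 for Ntn1 and -2.39 for Cpe. Cycling nuclei held Gabrg3 at 65.5, 34.3, 45.4 and 9.97 CPM in untreated and 5.52, 2.72, 0.628 and 0.302 CPM in Minnelide tumors. Ntn1 was there at 79.7, 28.4, 27.4 and 13.3 CPM and then 6.63, 14.5, 9.59 and 7.63 CPM. Cpe was there at 152, 51.9, 56.9 and 20.7 CPM and then 12.3, 24.2, 9.30 and 12.1 CPM. In cycling nuclei the groups overlapped for Ntn1 and Cpe but not for Gabrg3.

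Irf4, an interferon regulatory factor gene of lymphoid cells, was at 196, 37.6, 4.87 and 17.2 CPM in untreated and 4.15, 1.84, 4.40 and 3.16 CPM in Minnelide tumors. Smpd3, which encodes a neutral sphingomyelinase, was at 29.6, 16.5, 20.3 and 0 CPM in untreated tumors and listed at 0 in all 4 Minnelide tumors. Hoxb6, a patterning gene of the body axis, was at 33.3, 23.3, 84.4 and 2.86 CPM and then 1.04, 1.23, 0.799 and 1.05 CPM. Irf4, Smpd3, Hoxb6 and the related Hoxb3 were the 4 genes that did not pass edgeR's filter on low counts. Of the 10 genes, 8 did not overlap between the groups, against 2.77% of the genes tested by edgeR that were lower without overlap. The 10 were chosen by the same contrast, so this count is a description. For Hoxb6 the gap was narrow, from 2.86 CPM in untreated tumor 4 to 1.23 CPM in Minnelide tumor 2. Without untreated tumor 1, DESeq2 called 7 genes, 6 of them shared with the 10, and Smpd3, Irf4, Cadps and Hoxb3 were no longer called, with adjusted p of 0.9998, 0.294, 0.171 and 0.104. Of the 10, 6 were lower in noncycling tumor nuclei than in nuclei with a low T by their median fold, at 0.344 for Cpe, 0.654 for Ntn1, 0.301 for Ldb2, 0.509 for Hoxb6, 0.563 for Hoxb3 and 0.916 for Smpd3.

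Of the genes with the smallest p in the higher direction, Slf1, which encodes a DNA repair factor that recruits the SMC5/6 complex, was at 150.3, 173, 155 and 130.1 CPM in untreated and 205, 206, 222 and 219 CPM in Minnelide tumors, a log2 fold change of 0.55 ± 0.14 (SE). Podxl2, which encodes a podocalyxin-like membrane protein, was at 9.85, 23.9, 16.2 and 12.9 CPM and then 35.2, 30.1, 32.4 and 33.7 CPM. Plppr3, a gene of a neuronal membrane protein, was at 4.93, 6.83, 6.5 and 5.72 CPM and then 14.5, 12.3, 12.8 and 14.7 CPM. None of the 3 overlapped between groups, and each had an adjusted p of 0.847 in edgeR's quasi-likelihood test with Benjamini-Hochberg adjustment. The other genes named by the same rule were Wdr19 and Nap1l1 among the higher and Zfp574 and Arhgap22 among the lower.

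**Figure D4:**
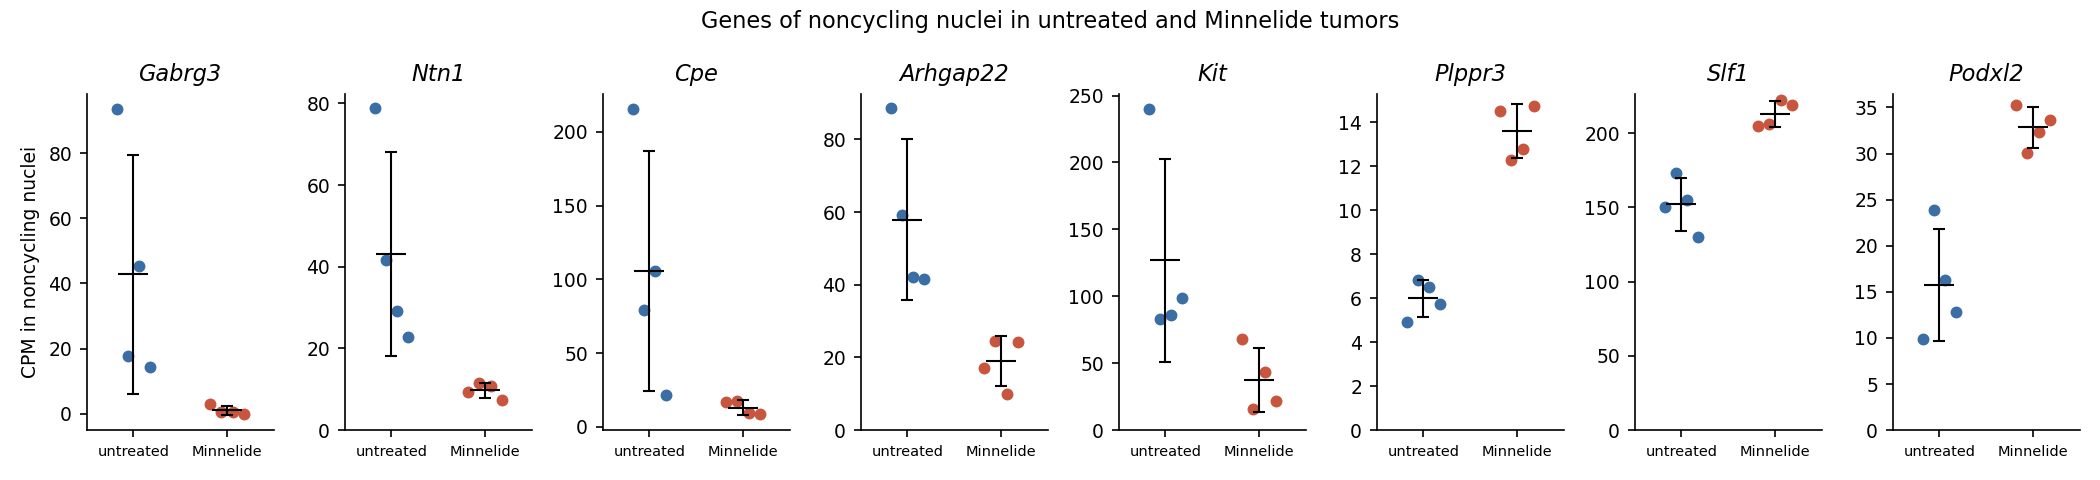
CPM of 8 genes in noncycling tumor nuclei, 1 point for each tumor (blue untreated, red Minnelide) with the group mean and SD as a bar. The 2 groups do not overlap for any of the 8 genes, and untreated tumor 1 has the highest point of the group for Gabrg3, Ntn1, Cpe, Arhgap22 and Kit, for example 240.2 CPM for Kit.

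None of the gene lists held a gene called by edgeR, and their medians are set here against 0.01 for all genes tested. Members without overlap between the groups are to be read against 1.16% higher and 2.77% lower over all genes, and a single member of a list is close to that share. Without untreated tumor 1, 4 further list medians given here changed sign, to -0.04 for the CIC::DUX4 targets, -0.05 for hypoxia and glycolysis, -0.03 for cartilage and bone and 0.14 for the heat shock list. The 14 tested CIC::DUX4 targets outside the score had 8 higher and 6 lower, with a median log2 fold change of 0.07. In the score itself Etv4 had a log2 fold change of -0.43 ± 0.22 (SE) and Etv1 0.17 ± 0.25 (SE). Spry2, a feedback inhibitor of receptor tyrosine kinases whose promoter window held an octamer, was the 1 target without overlap. It was at 78.8, 59.8, 58.5 and 75.8 CPM in untreated and 47.2, 48.5, 49.1 and 39.0 CPM in Minnelide tumors, a difference of -0.49 ± 0.16 (SE) on the log2 scale. The adjusted p in edgeR's quasi-likelihood test was 0.847. Summed, the further targets were at 7761, 12697, 10260 and 11725 CPM and then 14108, 9313, 15806 and 12815 CPM, with overlap.

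Subunit genes of TFIIH and RNA polymerase II, the machinery that triptolide acts on, had 11 higher and 8 lower of 19 tested, with a median of 0.04. Polr2a was at 92.4, 131, 187 and 222 CPM in untreated and 156, 139, 147 and 122 CPM in Minnelide tumors, with overlap. Short-lived transcripts of the immediate early response had 15 lower of 20 tested, with a median of -0.38, and Egr1, Klf4 and Fosl2 did not overlap. Egr1 was at 27.1, 20.5, 13.8 and 20.01 CPM in untreated and 11.4, 12.3, 9.99 and 10.5 CPM in Minnelide tumors. The median was -0.05 without untreated tumor 1. Interferon response genes had 9 lower of 10 tested, with a median of -0.56 that was -0.13 without untreated tumor 1. Stat2, a transcription factor of that response, was at 48.0, 27.3, 21.9 and 37.2 CPM and then 24.4, 16.6, 17.98 and 13.7 CPM, with overlap.

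Markers of other cells were measured in the same nuclei. Of the macrophage markers, 8 of 9 tested had lower values in Minnelide tumors, with summed levels of 745, 459, 226 and 283 CPM in untreated and 304, 319, 315 and 167 CPM in Minnelide tumors. All 10 myocyte markers were lower by their fold change, with summed levels of 15146, 2457, 3437 and 4482 CPM and then 2043, 14036, 469 and 1123 CPM. All 4 tested osteoclast markers had lower values as well, as did 7 of 10 endothelial markers. The endothelial markers are the genes of the score E, held under 20 in these nuclei, so their levels are a description. They summed to 1339, 415, 504 and 499 CPM and then 672, 424, 414 and 690 CPM. The groups overlapped with and without untreated tumor 1. Fibroblast markers had 3 higher and 5 lower of 8, and pericyte and smooth muscle markers 5 higher and 2 lower of 7, with a median of 0.11. None of these marker genes was called by edgeR, and their part in the list values was not tested. T and NK cell markers were too low to test. They summed to 44.3, 24.5, 5.68 and 14.3 CPM in untreated and 0.518, 1.23, 2.40 and 2.11 CPM in Minnelide tumors. These sums did not overlap between the groups.

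Genes that hold cells out of the cycle or guard their survival also had no call. Among CDK inhibitors, pocket proteins and DREAM members, 16 of 20 tested had lower values, with a median of -0.19, and Cdkn2a did not overlap. Cdkn2a, which encodes the inhibitor p16 and the p53 activator ARF, was at 20.9, 32.4, 24.4 and 24.3 CPM in untreated and 15.5, 11.05, 15.2 and 15.8 CPM in Minnelide tumors, a log2 fold change of -0.78 ± 0.23 (SE). The p53 targets had 8 higher and 10 lower of 18, with a median of -0.13. Their feedback ubiquitin ligase gene Mdm2 was at 133, 133, 144 and 156 CPM and then 96.4, 89.6, 127 and 99.0 CPM, without overlap, as was the death receptor gene Eda2r. Of 14 genes of the BCL2 and IAP families, 7 were higher and 7 lower, with a median of -0.05. Bcl2l1, which encodes the survival factor BCL-XL, was at 123, 91.6, 84.4 and 92.9 CPM and then 66.3, 72.4, 67.1 and 44.2 CPM, without overlap, as was Birc3.

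The cell cycle list outside the score had 21 higher and 5 lower of 26 tested in these nuclei, with a median of 0.21, and -0.06 without untreated tumor 1. The genes of the score C itself also had higher sums in the Minnelide nuclei, within the same C limit. They were at 184, 252, 233 and 179 CPM in untreated and 289, 258, 298 and 254 CPM in Minnelide tumors, without overlap. The part of these remaining C transcripts in the list values was not tested. The heat shock and unfolded protein response list had 9 higher and 10 lower of 19, with a median of -0.06. Of 37 hypoxia and glycolysis genes, 21 were higher and 16 lower, with a median of 0.04. Bhlhe40, Higd1a and Bnip3 had lower values without overlap, with the mitophagy gene Bnip3 at 88.7, 70.6, 82.8 and 82.9 CPM in untreated and 52.9, 47.3, 56.7 and 68.4 CPM in Minnelide tumors. Oncofetal and stem genes had 10 higher of 11, with a median of 0.33, and Sox4 had lower values without overlap. Their sum was at 4402, 7101, 8009 and 6981 CPM in untreated and 8644, 6260, 7871 and 7471 CPM in Minnelide tumors. The groups overlapped, and untreated tumor 1 was lowest. Receptor tyrosine kinases had 16 higher of 20, with a median of 0.16. Their sum was at 6187, 7402, 7711 and 7843 CPM and then 7040, 7385, 7696 and 7972 CPM, with overlap and untreated tumor 1 lowest. Kit, the stem cell factor receptor, was the 1 kinase without overlap, at 240.2, 83.1, 86.1 and 98.6 CPM in untreated and 68.4, 15.96, 43.6 and 22.1 CPM in Minnelide tumors, a log2 fold change of -1.66 ± 0.47 (SE). Without untreated tumor 1 the log2 fold change of Kit was -1.21. Cartilage and bone genes had 7 higher and 7 lower of 14, with a median of 0.15 that was -0.30 without Minnelide tumor 2. Neuronal adhesion genes had 6 higher and 6 lower of 12, with a median of 0.02, and of 6 drug efflux and alkaline phosphatase genes 5 had lower values, with a median of -0.18.

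Whether Minnelide went with a different change in noncycling than in cycling nuclei was tested as an interaction, with both classes of each tumor in 1 fit. Of 11249 genes, 0 (0%) were called by edgeR's quasi-likelihood test at a Benjamini-Hochberg adjusted p under 0.05, and 467 had an unadjusted p under 0.05. DESeq2 also called 0, and 227 genes had an unadjusted p under 0.05. The 2 genes with the smallest p were Nav2, a neuron navigator gene, and Pappa, the gene of a protease of IGF-binding proteins. Nav2 was at 1202, 426, 1043 and 903 CPM in the noncycling nuclei of untreated and 476, 458, 255 and 287 CPM in those of Minnelide tumors. In cycling nuclei it was at 982, 409, 809 and 931 CPM and then 665, 523, 357 and 351 CPM. The difference between the 2 log2 fold changes was -0.57, with an adjusted p of 0.448 by edgeR. Pappa was at 37.0, 34.1, 30.04 and 47.2 CPM and then 52.9, 38.1, 60.7 and 68.4 CPM in noncycling nuclei. Its levels in cycling nuclei were 96.4, 32.6, 60.8 and 46.6 CPM and then 24.5, 31.9, 40.9 and 49.0 CPM. The difference between the 2 log2 fold changes of Pappa was 1.12, with an adjusted p of 0.638 by edgeR.

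The 12 genes with the largest SD over the 8 tumors were chosen for that spread, so their levels are a description. Meis2, a homeobox gene of limb and neural patterning, was at 60.4, 1159, 372 and 22.9 CPM in the noncycling nuclei of untreated and 25.4, 1097, 133 and 4186 CPM in those of Minnelide tumors. In cycling nuclei it was at 50.1, 1196, 583 and 32.1 CPM and then 16.7, 1144, 121 and 3863 CPM, in nearly the same order. The zinc finger gene Zfp804b had the widest spread, with an SD of 2.84 on the log2 scale, at 0, 106, 1.62 and 1.43 CPM in untreated and 1.04, 209.9, 2.00 and 631 CPM in Minnelide tumors. High and low tumors occurred in both groups for both genes.

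Among the other genes of this set, Cdh4, which encodes R-cadherin, was at 6.16, 15.4, 142 and 898 CPM in untreated and 549, 33.8, 20.4 and 3.16 CPM in Minnelide tumors, highest where Meis2 was lowest. Lsamp, a gene of a limbic adhesion protein, was at 665, 832, 776 and 82.9 CPM and then 124, 3433, 10.4 and 1604 CPM. The adhesion receptor gene Adgrv1 was at 41.9, 1326, 585 and 334 CPM and then 333, 1315, 85.1 and 4889.7 CPM. The axon guidance receptor gene Dcc, one of the leading genes above and outside the set of 12, was at 553, 1663, 875 and 1092 CPM and then 632, 2064, 3229 and 9753 CPM. Adgrv1, Meis2 and Dcc each had their highest value in Minnelide tumor 4, and the groups overlapped for each of them. The remaining genes of the set were Bmpr1b, Car10, Cdh8, Tenm1, Ablim3, Agbl1 and Trim63, a ubiquitin ligase gene of muscle. Trim63 and Agbl1 were higher in nuclei with a low T than in noncycling tumor nuclei in each tumor, with largest folds of 0.307 and 0.456.

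**Figure D5:**
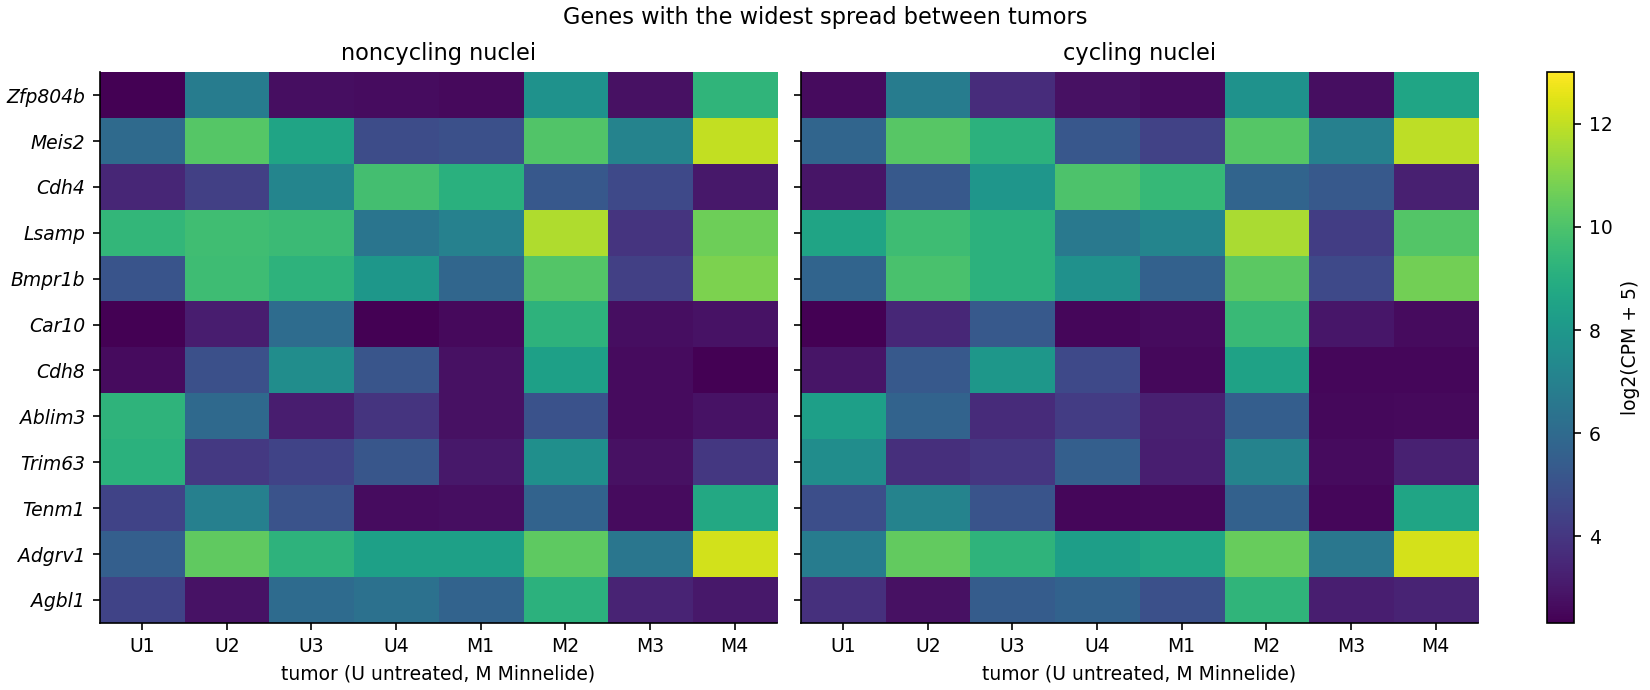
Heat map of log2(CPM + 5) of the 12 genes with the largest SD over the 8 tumors, in noncycling (left) and cycling (right) tumor nuclei of each tumor. The 2 panels look alike, with Meis2 brightest in Minnelide tumor 4 (4186 CPM in noncycling nuclei) and Cdh4 in untreated tumor 4 (898 CPM).

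Across genes, the Spearman correlation between noncycling and cycling nuclei was 0.921 to 0.983 within a tumor. Between the noncycling nuclei of different tumors its median was 0.823 for untreated tumor 1 and 0.886 to 0.929 for the other 7. These are descriptions over genes that share libraries and depth, and genes are not independent replicates.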

How the data were processed

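The authors isolated nuclei, made 3' single-nucleus RNA libraries with on-chip multiplexing, and deposited filtered matrices of UMI counts per gene and nucleus for 8 tumors. The labels name bcl2fastq 2.20, Cell Ranger 7.0.1 and mm39, while the matrix headers name Cell Ranger 9.0.1. Words on treatment response in the file names are not in the labels and were not used.

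Noncycling tumor nuclei, their score thresholds and all gene lists were chosen with earlier results of these data known. Counts were summed over each tumor's noncycling nuclei and tested in R 4.3.3 with edgeR 4.0.16 (TMM factors, filterByExpr, quasi-likelihood, Benjamini-Hochberg). No batch covariate was available. DESeq2 1.42.0 and limma 3.58.1 with voom were alternatives. The interaction test kept the tumor as a block. Shares were compared over tumors by two-sided exact permutation (SciPy 1.17.1). The labels name no animal for each tumor, so p-values measure only the spread between these tumors, which may be technical. Classes within a tumor were compared on log2(CPM + 5), for genes at 20 CPM or more in the mean of either class, without a test. Leading genes needed 50 CPM in every tumor. Scrublet, in scanpy 1.11.5, marked doublets as an alternative (219 noncycling nuclei), and they were kept in the results given. The tests were checked on simulated data.

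Named genes were the score genes, the 5 smallest p in each direction of the treatment test, up to 4 genes without overlap in each list or otherwise the 2 smallest p, 20 leading genes, 8 in each direction between classes, 12 with the widest spread and 2 for the interaction. The DESeq2 calls and further list members were named after their values were seen. The median depth of noncycling nuclei was 1520 to 3509 UMIs. Gene positions are from GENCODE M39 on GRCm39, where 19043 of 19059 features were found.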

Additional observations from a re-analysis of the deposited data

Results flagged for a closer look

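Of 240 groups of 4 tumors, 26 held a tumor whose gap to its neighbour exceeded 0.829 of the range. Chance gives about 1 in 20 for independent, normally distributed values. The groups hold genes named for their values and sums that share genes, so the count cannot be set against that rate. Of the 26, 15 were untreated tumor 1, with its endothelial sum counted both as markers and as the score E. It was high for the noncycling share of tumor nuclei (57.2%) and for Klf4 (27.1 CPM), Kit (240.2 CPM), Abcg2 (245 CPM), Trim9 (722 CPM), Ly6a (243 CPM), Lbp (320.3 CPM) and Ldb2 (810.5 CPM). It was low for the leading genes Asic2 (1077 CPM), Igf2bp3 (519 CPM) and Sdk1 (1051 CPM). Its summed endothelial genes, which are both a marker list and the score E, reached 1339 CPM, its myocyte markers 15150.0 CPM and its adipocyte markers 243.9 CPM.

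Minnelide tumor 2 was low for Cdkn2a (11.05 CPM) and high for Grip1 (1649 CPM), Kbtbd12 (137 CPM), Lmod2 (109.9 CPM) and the summed myocyte markers (14040.0 CPM). Minnelide tumor 4 was high for the bone matrix gene Ibsp (60.02 CPM) and low for Pde10a (12020.0 CPM) and the summed macrophage markers (167 CPM). Minnelide tumor 3 stood apart for the summed p53 targets (1097 CPM), untreated tumor 2 was high for Mcm7 (36.4 CPM) and untreated tumor 3 for Me1 (46.3 CPM). The part of other cells' transcripts in these values was not tested.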

How the results depend on the processing

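The difference in the noncycling share of passed nuclei changed sign with a T threshold of 60 (0.0886 points), a minimum of 2000 UMIs (0.354 points) and thinning to 1000 UMIs (2.11 points), and ran from -1.73 to 1.03 points with each tumor left out in turn, positive without untreated tumor 2 or Minnelide tumor 1. The share of tumor nuclei kept a negative difference, from -17.99 to -2.58 points with each tumor left out. With a C of 0 required, the difference was -1.44 points of passed nuclei, with an exact permutation p of 0.143. Of tumor nuclei it was then -10.1 points, with an exact permutation p of 0.114. No share difference had a smaller exact permutation p than this 0.114, against a smallest possible p of 0.0286. The cause of the sign changes was not tested. The count of called genes was 10 with DESeq2 and 7 with DESeq2 without untreated tumor 1, against 0 under the other settings. For the interaction, edgeR without the filter on low counts called 11 of 17144 genes, 6 higher and 5 lower, against 0 otherwise. Among 45 named genes, the log2 fold change of Shc4 turned negative with a minimum of 2000 UMIs (-0.003013), an E threshold of 10 (-0.0581) and without untreated tumor 1 (-0.0971 by edgeR and -0.0936 by DESeq2), with a range of -0.0971 to 0.18 over tumors left out in turn. The log2 fold change of Abcg2 turned positive with the E threshold of 10 (0.21) and without untreated tumor 1 (0.42 by edgeR and by DESeq2), with a range of -0.93 to 0.42. Leaving out Scrublet doublets, 2000 UMIs and a C threshold of 0, settings chosen after seeing the data for the comparison of classes, gave a median of 0.253 to 0.277 for hypoxia and glycolysis and -0.968 to -0.680 for cell cycle genes. No paired analysis was possible because the labels give the tumors of the groups no shared replicate numbers. Depth limits every C-based call, since shallow nuclei can lack C transcripts by counting alone.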
